A study of Homo sapiens with 9 samples.

Results

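The 35 interferon-stimulated genes described here were taken by symbol from a deposited expression table of 56609 symbols, and all 35 were found in it. They include 4 transcription factors of the interferon pathway (STAT2, IRF9, IRF1 and IRF7), 2 RNA sensors (DDX58 and IFIH1), 4 IFIT genes, 4 OAS genes and 8 other antiviral effectors. The rest are ISG15, its enzymes HERC5 and USP18, the HERC5 relative HERC6, the pair PARP9 and DTX3L, and 7 further genes that respond to interferon. RNA was measured in MCF10A, an established line of non-tumorigenic epithelial cells from human breast. The high calcium group (3 samples) was kept for 16 h with 10 mM calcium together with ionomycin, an ionophore that carries calcium into cells and whose dose the labels give as 1 mM. The TGFb3 group (3 samples) was given 10 nM transforming growth factor beta 3 for 16 h, and the control group (3 samples) was untreated. All 3 groups grew in medium with insulin, hydrocortisone, cholera toxin, epidermal growth factor and horse serum. The labels name no interferon and no virus among the treatments. They number the replicates without stating that each was its own culture, and the p-values below therefore cover the scatter between samples alone, part or all of which may be technical.

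Interferons are secreted proteins that warn cells of infection. RNA sensors in the cytoplasm switch on interferon genes, secreted type I interferon binds IFNAR1 and IFNAR2, and type III interferon binds IFNLR1 with IL10RB. The kinases JAK1 and TYK2 then phosphorylate STAT proteins, among them STAT2, which joins IRF9 in the complex ISGF3. ISGF3 binds a DNA element called ISRE in the promoters of many interferon-stimulated genes, while type II interferon acts at an element called GAS. Many of the induced proteins block viral RNA or its translation, and others (IRF7, IRF9, STAT2, DDX58, IFIH1) belong to the pathway itself and amplify it. Epithelial cells, including those of the breast, carry this pathway and hold a low level of many of its targets without infection.

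The elements can be seen in the sequences. Promoters were read from RefSeq (build GRCh38.p14, 250 bases before to 50 after the annotated start), where 28 of the 35 genes had an entry. The ISRE core was searched as GAAA, any 2 bases and GAAA again, or its reverse complement (TTTC, any 2 bases, TTTC), and the GAS core as TTCNNNGAA, which is its own reverse complement. An ISRE core and a GAS core can overlap on the same bases. An ISRE core was present in 19 of the 28 genes (67.9%), against 4.38% of all 27305 genes of the promoter table. A GAS core was present in 8 of the 28 (28.6%), against 9.38% of all genes. A match describes the letters only and is not a tested binding site.

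The sequences below belong to genes whose RNA behaved differently in these samples. They come from 3 genes higher in high calcium (IFIT1, IFIT3, ISG15), 1 gene lower in high calcium and higher in TGFb3 (SAMD9), 1 that was not called against the control in either treatment (IFI44), and 2 that stayed under 1 TPM (HERC5, RSAD2). IRF1 is shown for its GAS core. Each runs 5′ to 3′ on the strand of its gene, with the cores in capitals and 12 bases on either side in lower case. IFIT1 lies at chr10:89392495-89392541 (+), IFIT3 at chr10:89327829-89327896 (+), ISG15 at chr1:1013372-1013411 (+) and SAMD9 at chr7:93118094-93118127 (-). IFI44 lies at chr1:78649759-78649792 (+), HERC5 at chr4:88456982-88457066 (+), RSAD2 at chr2:6877620-6877653 (+) and the IRF1 element at chr5:132490877-132490909 (-).
IFIT1 ISRE: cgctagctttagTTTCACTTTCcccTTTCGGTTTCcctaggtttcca
IFIT3 ISRE: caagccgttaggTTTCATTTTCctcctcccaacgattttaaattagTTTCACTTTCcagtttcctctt
ISG15 ISRE: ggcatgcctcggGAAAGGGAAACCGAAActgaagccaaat
SAMD9 ISRE: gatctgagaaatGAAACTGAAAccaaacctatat
IFI44 ISRE: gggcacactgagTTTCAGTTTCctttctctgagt
HERC5 ISRE: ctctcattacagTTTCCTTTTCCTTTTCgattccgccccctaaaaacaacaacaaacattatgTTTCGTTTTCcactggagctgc
RSAD2 ISRE: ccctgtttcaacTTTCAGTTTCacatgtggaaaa
IRF1 GAS: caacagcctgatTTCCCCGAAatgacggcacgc

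Genes with an ISRE core were found among those higher, lower and not called. Here a gene is called higher or lower where limma gave an adjusted p under 0.05 over all 13968 tested symbols. Of the 15 tested genes with a core, 9 were higher, 1 was lower and 5 were not called in high calcium against control, where 46.1% of all tested symbols were higher and 17.0% lower. In TGFb3 against control, 5 of the 15 were higher, 4 were lower and 6 were not called, where 26.5% of all symbols were higher and 33.1% lower. Of the 7 tested genes with a promoter entry but no core in this window, 5 were higher in high calcium and none was lower. SAMD9 and ISG15 carry cores of the same kind and moved apart in high calcium, as described below. HERC5, with 3 cores, and RSAD2, with 1, reached no more than 0.273 and 0.434 TPM in any sample.

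Values are in TPM (transcripts per 1000000), a share of each library corrected for gene length, so levels can be set beside each other between genes. The unit does not record how deeply a library was read, and the depth behind each value is unknown. The identity of the cells was checked first. All 10 markers of basal breast epithelium averaged at least 1 TPM, with sums of 7400 to 7716 TPM in high calcium, 6553 to 7727 TPM in TGFb3 and 3823 to 4099 TPM in control. Of 13 leukocyte markers, 9 were listed at 0 in every sample, among them PTPRC, CD3E, IRF8 and CLEC4C. The leukocyte sum was 53.7 to 73.9 TPM in high calcium, 10.9 to 15.6 TPM in TGFb3 and 19.6 to 23.5 TPM in control, and CD14 and CD68 were its 2 genes with a mean of at least 1 TPM. For 10 markers of fibroblasts and endothelium, of which CDH5 was listed at 0, the sum was 17.0 to 19.8 TPM in high calcium, 30.3 to 33.6 TPM in TGFb3 and 7.11 to 7.75 TPM in control, carried by DCN, COL1A1 and KDR. The part of these markers in the results was not tested. Mitochondrially encoded RNA held 11.1% to 11.9% of TPM in high calcium, 22.2% to 23.3% in TGFb3 and 21.7% to 23.3% in control, and all TPM of a library add up to the same total. The part of this share in the differences was not tested beyond leaving these genes out. The median log2 difference of all 13968 tested symbols was not at 0, but at 0.22 in high calcium against control, -0.06 in TGFb3 against control and 0.27 in high calcium against TGFb3. With mitochondrial genes left out these medians were 0.05, -0.06 and 0.09. In bulk RNA, fewer cells of a type and less RNA per cell cannot be told apart.

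The genes spanned a wide range of levels. Of the 35, 8 stayed under 1 TPM in all 9 samples: OAS2, MX2, RSAD2, CMPK2, BST2, HERC5, EPSTI1 and XAF1. XAF1, which encodes a partner of an apoptosis inhibitor, was listed at 0 in all 9. At the other end, 9 genes had at least 10 TPM in every sample, and 24 had at least 1 TPM in every sample. The remaining 3 (IRF7, MX1 and ISG15) averaged more than 1 TPM but fell under it in some sample. The most abundant genes were DTX3L, STAT2, IFIH1 and IFIT5 in high calcium, SAMD9, STAT2, DTX3L and IFIT5 in TGFb3, and IFIT5, DTX3L, IFIH1 and SAMD9 in control. MX1, ISG15, RSAD2, IFI27 and IFI44L had no more than 8.46 TPM, reached by IFI27, in any sample. IFIT1, OAS1, IFIT3 and IFIT2 reached 12.6, 12.9, 18.6 and 21.2 TPM, each in a high calcium sample.

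**Figure D1:**
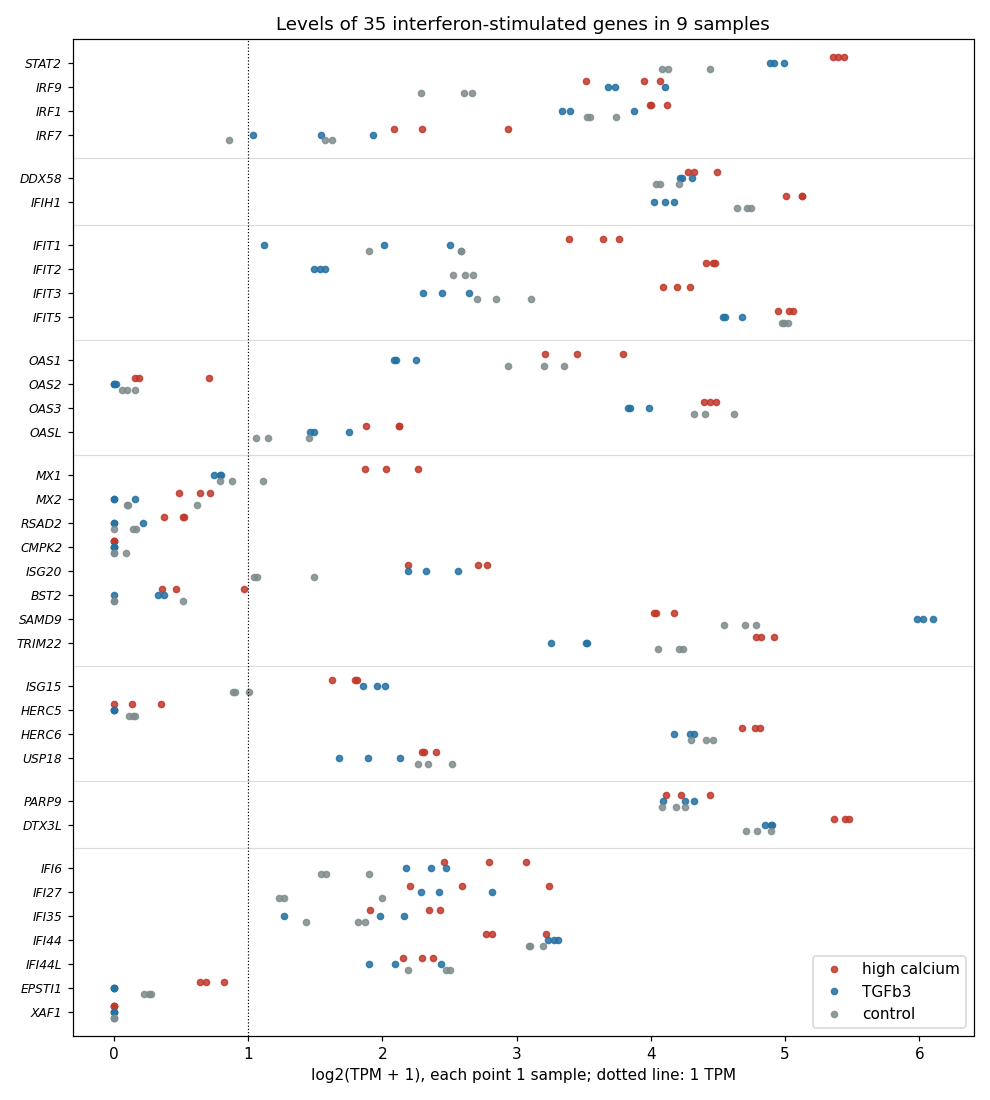
Level of each of the 35 genes (rows, grouped by role; axis in log2(TPM + 1)) in the 9 samples, with 1 point a sample for high calcium, TGFb3 and control and a dotted line at 1 TPM. The 8 genes named in the text as under 1 TPM sit near the left edge, while DTX3L, STAT2, IFIH1, IFIT5 and SAMD9 lie to the right.

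The summed level of the 35 genes was 402.9, 414.0 and 428.8 TPM in high calcium, 321.5, 316.6 and 306.6 TPM in TGFb3, and 274.3, 278.5 and 304.7 TPM in control. The 3 groups did not overlap, with high calcium highest and control lowest. The sums averaged 415 ± 13.0 TPM in high calcium, 315 ± 7.60 TPM in TGFb3 and 286 ± 16.5 TPM in control (SD, n = 3 each). A few genes carried each sum: the 8 highest held 58.5% of it in high calcium, 68.6% in TGFb3 and 64.1% in control. The sum hides opposite movements. SAMD9 alone averaged 64.6 TPM in TGFb3 and 24.7 TPM in control, a wider gap than that between the mean sums of these groups. The order of TGFb3 above control in the sum thus rests on SAMD9. The 4 IFIT genes together had 76.4 to 84.7 TPM in high calcium, 29.4 to 35.6 TPM in TGFb3 and 43.8 to 48.1 TPM in control. The 4 OAS genes together had 31.1 to 37.8 TPM in high calcium, 18.3 to 20.5 TPM in TGFb3 and 28.1 to 34.6 TPM in control. The transcription factors had 70.9 to 79.9 TPM in high calcium, 50.7 to 58.7 TPM in TGFb3 and 33.3 to 39.0 TPM in control, so that they alone of these 3 families were higher in TGFb3 than in control. The 8 other antiviral effectors had 49.5 to 57.3 TPM in high calcium, 77.7 to 82.6 TPM in TGFb3 and 41.1 to 47.0 TPM in control, a sum that SAMD9 leads in TGFb3.

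**Figure D2:**
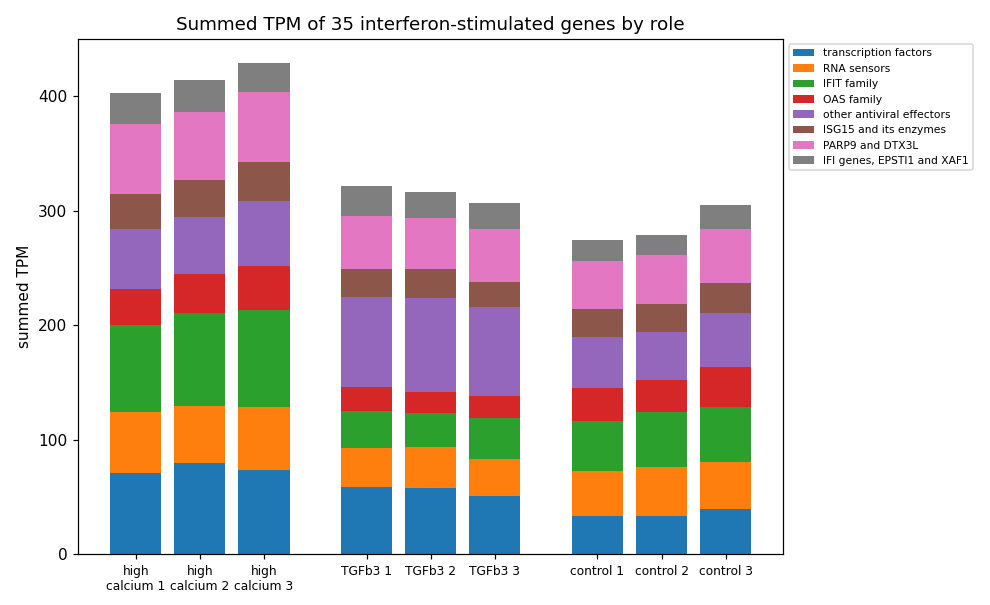
Summed TPM of the 35 genes in each sample (1 bar a sample, axis from 0; high calcium, TGFb3 and control from left to right), stacked by role in colours. The bars are tallest in high calcium, at 402.9 to 428.8 TPM, where the IFIT part is also widest, while the part of the other antiviral effectors is widest in TGFb3.

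In high calcium against control, most of the tested interferon-stimulated genes were higher, led by IFIT2, ISG20, IRF9, IFIT3 and IFIT1, and SAMD9 alone was lower. Of the 27 tested (mean of at least 1 TPM), 18 were higher (66.7%), 1 was lower (3.70%) and 8 were not called. Calls are at an adjusted p under 0.05 over all tested symbols. MX1, 1 of the higher genes, passed the filter on the mean only through its high calcium samples. Of all 13968 symbols, 46.1% were called higher and 17.0% lower in the same fit, so a large part of the transcriptome moved too. The median log2 difference of the 27 was 0.63, against 0.22 over all symbols, and 20 of the 27 lay above that median. When libraries were rescaled by median ratios, which brings the median of all symbols to -0.01, 14 of the 27 were higher and 4 lower, against 29.7% and 30.8% of all symbols. In TGFb3 against control the genes split: 7 were higher (25.9%), 8 were lower (29.6%) and 12 were not called, beside 26.5% higher and 33.1% lower of all symbols. Their median log2 difference was 0.05, against -0.06 over all symbols, and it was -0.13 with a minimum mean of 5 TPM, -0.08 without TGFb3 replicate 1 and -0.09 without control replicate 1. Both shares of called genes were thus near those of the transcriptome. The 7 genes higher in TGFb3 were SAMD9, IRF9, ISG20, ISG15, IFI27, STAT2 and IFI6, and the 8 lower were IFIT2, OAS1, TRIM22, IFIH1, OAS3, USP18, IFIT3 and IFIT5.

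Between the treatments, with high calcium set against TGFb3, 17 of the 27 were higher (63.0%), 2 were lower (7.41%) and 8 were not called, beside 50.4% higher and 16.2% lower of all symbols. The median log2 difference was 0.47, against 0.27 over all symbols. With median ratio rescaling 10 were higher and 4 lower, against 29.7% and 30.8% of all symbols, and STAT2, IRF1, IRF7, IFIT5, OASL, USP18 and IFI6 lost their calls. The 2 lower genes were SAMD9 and IFI44 (-0.34 ± 0.12, adjusted p = 0.028). The IFI44 call was lost without high calcium replicate 1 (adjusted p = 0.096), high calcium replicate 2 (0.10), TGFb3 replicate 1 (0.072) or TGFb3 replicate 3 (0.062). Of the 17 higher genes, 13 to 17 were called when 1 sample was left out, and the calls lost this way belonged to IRF7, OASL, USP18 and IFI6. The shares of all symbols called with 1 sample left out are not given, so this loss cannot be set beside them. OASL was 0.48 ± 0.16 (adjusted p = 0.021) and reached an adjusted p of 0.066 without high calcium replicate 2, 0.067 without high calcium replicate 3, 0.066 without TGFb3 replicate 2 and 0.060 without TGFb3 replicate 3. USP18 was 0.43 ± 0.14 (adjusted p = 0.017) and reached 0.055 without high calcium replicate 3 and 0.061 without TGFb3 replicate 3. All 4 IFIT genes and all 3 tested OAS genes were among the 17. The comparisons with the control share its 3 samples, so their differences are not independent of each other and are given side by side.

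**Figure D3:**
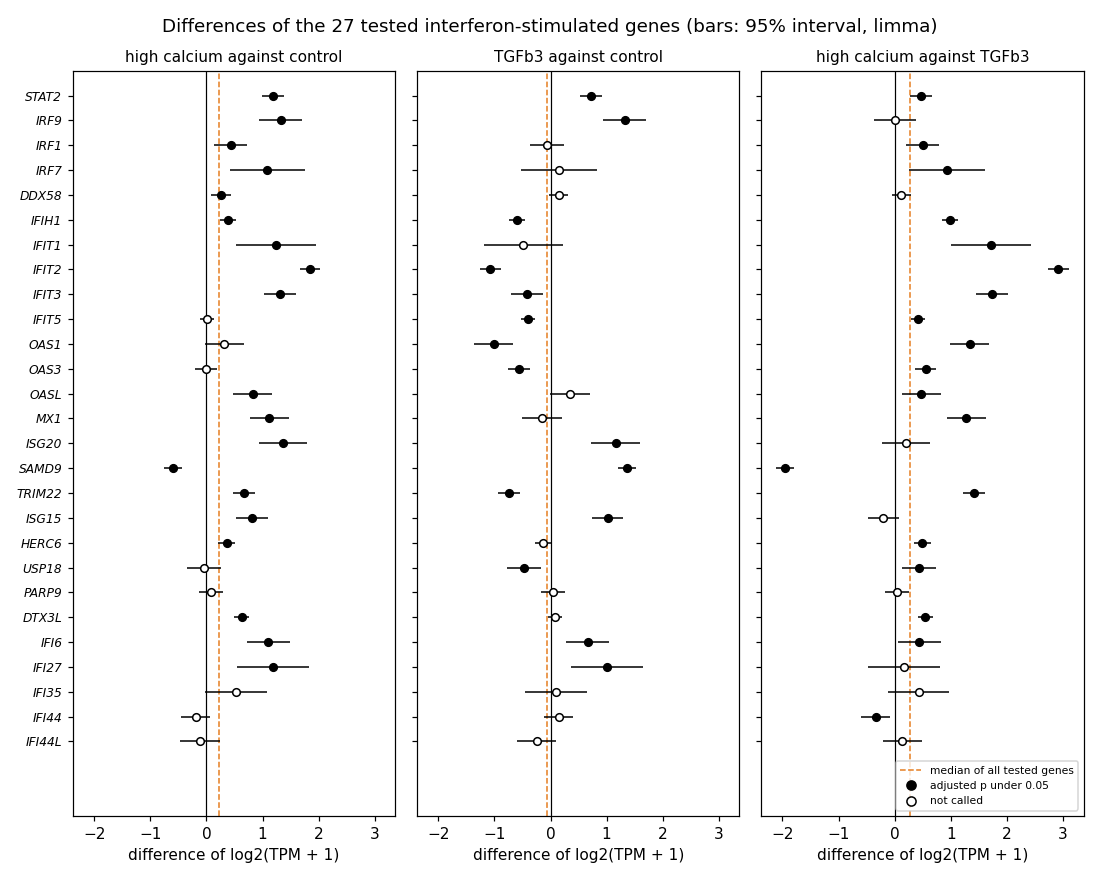
Log2 difference of log2(TPM + 1) with its 95% confidence interval for the 27 tested genes (rows, grouped by role), in 1 panel for each pair of groups, with the median of all tested symbols as a dashed line and called genes in filled symbols. IFIT2 is the gene farthest to the right in high calcium against control, at 1.84, and the farthest to the left in TGFb3 against control, at -1.07, where SAMD9 is farthest to the right, at 1.36.

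Among the transcription factors, STAT2 and IRF9, subunits of ISGF3, were higher in both treatments. STAT2 had 42.3, 41.1 and 40.0 TPM in high calcium, 30.8, 29.2 and 28.6 TPM in TGFb3, and 16.5, 16.0 and 20.7 TPM in control. The 3 groups did not overlap, with high calcium highest and control lowest. The log2 difference was 1.18 ± 0.087 (SE) in high calcium against control (adjusted p = 1.4e-06) and 0.71 ± 0.087 in TGFb3 against control (adjusted p = 5.4e-05). IRF9, the DNA-binding subunit of ISGF3, had 10.4, 15.8 and 14.4 TPM in high calcium, 12.3, 16.2 and 11.9 TPM in TGFb3, and 5.34, 5.10 and 3.88 TPM in control. Both treated groups lay wholly above the control and overlapped each other. Its log2 difference was 1.32 ± 0.17 in high calcium (adjusted p = 7.8e-05) and 1.32 ± 0.17 in TGFb3 (adjusted p = 8.2e-05), and between the treatments it was 0.00 with a 95% interval of -0.38 to 0.38. IRF9 shares 48.4% of its annotated exonic bases with AL136295.5 on the same strand, which had 6.40 to 8.24 TPM in high calcium, 3.46 to 5.21 TPM in TGFb3 and 3.45 to 3.91 TPM in control, and reads of the shared bases cannot be assigned to 1 of the 2 with certainty. STAT2 differed between the treatments by 0.47 ± 0.087 (adjusted p = 0.00087), a call lost with median ratio rescaling (0.18, adjusted p = 0.071).

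IRF7 and IRF1, transcription factors that drive interferon genes and their targets, were higher in high calcium and were not called in TGFb3. IRF7 had 3.24, 6.65 and 3.91 TPM in high calcium, 1.91, 2.82 and 1.05 TPM in TGFb3, and 0.813, 1.97 and 2.08 TPM in control. The high calcium samples lay above all others, while the TGFb3 samples overlapped the control. Its log2 difference in high calcium was 1.09 ± 0.30 (adjusted p = 0.0099), and 0.70 with quantile normalisation, where the call was lost (adjusted p = 0.067). IRF1 had 14.9, 16.4 and 15.0 TPM in high calcium, 13.7, 9.55 and 9.14 TPM in TGFb3, and 10.7, 10.5 and 12.4 TPM in control. Again the high calcium samples were above all others and TGFb3 overlapped the control. The IRF1 difference of 0.43 ± 0.13 in high calcium (adjusted p = 0.016) was small and stood 0.21 above the median of all symbols. Its call was lost without high calcium replicate 2 (adjusted p = 0.055), without control replicate 1 (adjusted p = 0.051), without control replicate 2 (adjusted p = 0.055) and under each of the 3 other scalings, with a lowest difference of 0.17 (adjusted p = 0.28). In TGFb3 against control the differences were 0.15 for IRF7 (adjusted p = 0.69) and -0.07 for IRF1 (adjusted p = 0.69). Between the treatments both were called higher in high calcium (IRF7 0.94, adjusted p = 0.020; IRF1 0.50, adjusted p = 0.0076). The IRF7 call was lost without high calcium replicate 2 (0.69, adjusted p = 0.077), without TGFb3 replicate 3 (0.70, adjusted p = 0.075), with median ratio rescaling (0.71, adjusted p = 0.064), and at 0.61 after quantile normalisation (adjusted p = 0.11). Without the limit on low values the difference was the same, 0.94, with an adjusted p of 0.060. The IRF1 call was lost under all 3 other scalings, at 0.22 with median ratio rescaling (adjusted p = 0.17), 0.23 with quantile normalisation (adjusted p = 0.13) and 0.32 with mitochondrial genes left out (adjusted p = 0.062).

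The RNA sensor IFIH1 (MDA5), which recognises long double-stranded RNA, moved in opposite directions in the treatments. IFIH1 had 34.0, 31.2 and 33.9 TPM in high calcium, 16.2, 17.0 and 15.2 TPM in TGFb3, and 24.0, 25.3 and 25.8 TPM in control. The groups did not overlap, with the control in the middle. IFIH1 differed by 0.39 ± 0.062 (log2) in high calcium (adjusted p = 0.00038) and -0.60 ± 0.062 in TGFb3 (adjusted p = 1.8e-05). The difference in high calcium was only 0.16 above the median of all symbols and was not called with median ratio rescaling (0.14, adjusted p = 0.075), whereas between the treatments it was 0.99 ± 0.062 (adjusted p = 4.5e-07). DDX58 (RIG-I), the sensor of RNA with a 5′ triphosphate, changed less, with 19.0, 18.4 and 21.6 TPM in high calcium, 17.8, 18.8 and 17.6 TPM in TGFb3, and 15.5, 17.5 and 15.8 TPM in control. All treated samples were above the highest control sample, and the treatments overlapped. Its difference in high calcium was 0.26 ± 0.076 (adjusted p = 0.013), 0.04 above the median of all symbols, and it was not called without high calcium replicate 3 (0.19, adjusted p = 0.055) or under any of the 3 other scalings. In TGFb3 it was 0.15 ± 0.076 and not called (adjusted p = 0.13).

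The IFIT genes, which encode proteins that bind foreign RNA and hold back its translation, were all 4 higher in high calcium than in TGFb3, though IFIT5 (0.42, adjusted p = 9.8e-05) lost that call with median ratio rescaling (0.13, adjusted p = 0.078). They stand in a cluster on chromosome 10 (GRCh38, GENCODE 29), with IFIT2 at chr10:89283694-89309276, IFIT3 at chr10:89327894-89340971, IFIT1 at chr10:89392546-89406486 and IFIT5 at chr10:89414586-89421001, all on the plus strand. IFIT2 had 21.1, 20.3 and 21.2 TPM in high calcium, 1.97, 1.81 and 1.90 TPM in TGFb3, and 5.13, 5.38 and 4.76 TPM in control. The groups were far apart and tight, with high calcium highest and TGFb3 lowest. Its mean was 4.10 times the control in high calcium and 0.372 times the control in TGFb3, with log2 differences of 1.84 ± 0.083 (adjusted p = 4.7e-08) and -1.07 ± 0.083 (adjusted p = 2.0e-06). Between the treatments the log2 difference was 2.92 ± 0.083 (adjusted p = 1.9e-09), a ratio of mean TPM of 11.0.

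IFIT3, the partner that stabilises IFIT1 on RNA, had 16.0, 17.3 and 18.6 TPM in high calcium, 5.25, 3.93 and 4.43 TPM in TGFb3, and 5.51, 6.20 and 7.63 TPM in control. High calcium lay far above the control, and TGFb3 just below it. The log2 difference was 1.31 ± 0.13 in high calcium (adjusted p = 1.0e-05) and -0.42 ± 0.13 in TGFb3 (adjusted p = 0.015), and the call in TGFb3 was lost without TGFb3 replicate 2 (-0.34, adjusted p = 0.056) or without control replicate 3 (-0.31, adjusted p = 0.052). IFIT1, which binds RNA whose cap lacks the host's methyl mark, had 9.46, 11.5 and 12.6 TPM in high calcium, 3.03, 1.17 and 4.66 TPM in TGFb3, and 2.74, 5.02 and 4.99 TPM in control. High calcium was again above all others, while the scattered TGFb3 samples overlapped the control. Its log2 difference was 1.24 ± 0.32 in high calcium (adjusted p = 0.0064) and -0.48 ± 0.32 in TGFb3, which was not called (adjusted p = 0.22) but became so without TGFb3 replicate 3 (-0.79, adjusted p = 0.044), while without TGFb3 replicate 2, the sample with 1.17 TPM, it was -0.10 (adjusted p = 0.74). IFIT5, which also binds RNA with a 5′ phosphate, was the most abundant of the 4, with 29.8 to 32.3 TPM in high calcium, 22.3 to 24.6 TPM in TGFb3 and 30.4 to 31.5 TPM in control. Only its TGFb3 samples stood apart, at -0.40 ± 0.056 against control (adjusted p = 0.00014), whereas in high calcium the difference was 0.01 with a 95% interval of -0.11 to 0.14, a value that lies 0.21 under the median of all symbols and turns negative under each of the 3 other scalings, where IFIT5 was called lower (-0.23, adjusted p = 0.0059 with median ratio rescaling; -0.21, adjusted p = 0.011 with quantile normalisation; -0.18, adjusted p = 0.021 with mitochondrial genes left out). A neighbouring gene stood in the same order as IFIT2: LIPA, the lysosomal acid lipase, whose annotated span overlaps IFIT1, IFIT2 and IFIT3 on the other strand, had 260.8 to 270.1 TPM in high calcium, 84.9 to 88.5 TPM in TGFb3 and 116 to 118 TPM in control. Its annotated exons share 65 bases with those of IFIT2 (1.58% of the exonic bases of IFIT2) and none with those of IFIT1 or IFIT3. Whether the libraries record strand is not given in the sources used here, and the part of LIPA reads in the IFIT values was not tested.

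**Figure D4:**
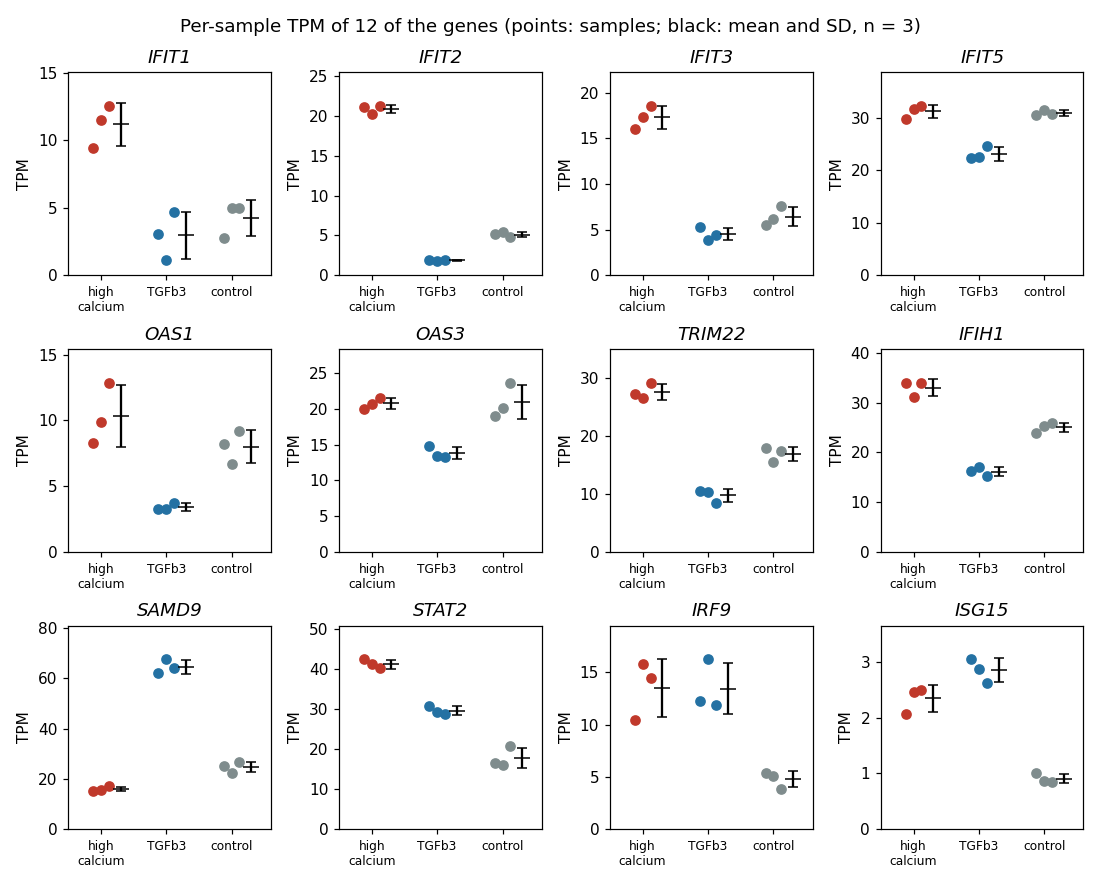
TPM in each of the 9 samples (points; the black mark and bar give the group mean and SD, n = 3; each panel has its own axis from 0) for 12 of the genes, with high calcium, TGFb3 and control from left to right. IFIT2, IFIT3, IFIH1 and TRIM22 are highest in high calcium and lowest in TGFb3, SAMD9 is highest in TGFb3 and lowest in high calcium, and STAT2 and ISG15 are lowest in control.

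The OAS genes encode enzymes that make oligoadenylates on double-stranded RNA and so switch on RNase L. OAS1, OAS3 and OAS2 lie side by side on chromosome 12, at chr12:112906777-112933222, chr12:112938352-112973249 and chr12:112978395-113011723. OAS1 had 8.28, 9.91 and 12.9 TPM in high calcium, 3.30, 3.24 and 3.77 TPM in TGFb3, and 8.21, 6.67 and 9.20 TPM in control. TGFb3 lay wholly below the control, whereas high calcium overlapped it. OAS1 differed by -1.02 ± 0.16 (log2) in TGFb3 (adjusted p = 0.00028) and 0.32 ± 0.16 in high calcium (adjusted p = 0.098), which was called without high calcium replicate 1 (0.46, adjusted p = 0.030). OAS3 had 20.0, 20.7 and 21.5 TPM in high calcium, 14.8, 13.3 and 13.3 TPM in TGFb3, and 19.0, 20.1 and 23.6 TPM in control. As for OAS1, its TGFb3 samples lay below the control, while its high calcium samples lay inside the range of the control. The log2 difference of OAS3 was -0.56 ± 0.084 in TGFb3 (adjusted p = 0.00024) and -0.01 ± 0.084 in high calcium (adjusted p = 0.95), and the second was called lower with median ratio rescaling (-0.25, adjusted p = 0.016) and with quantile normalisation (-0.23, adjusted p = 0.021). OASL, an OAS relative without the enzyme activity that promotes signalling by DDX58, differed from both, with 2.67, 3.37 and 3.36 TPM in high calcium, 2.37, 1.75 and 1.80 TPM in TGFb3, and 1.09, 1.21 and 1.73 TPM in control. The 3 groups did not overlap, and both treatments were above the control. OASL was called in high calcium (0.82 ± 0.16, adjusted p = 0.0011; 0.43 with quantile normalisation, adjusted p = 0.029), and in TGFb3 it was not (0.35 ± 0.16, adjusted p = 0.081), but was without control replicate 3 (0.46, adjusted p = 0.034). OAS2 stayed at or under 0.633 TPM in high calcium, 0.0128 TPM in TGFb3 and 0.112 TPM in control.

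Of the other antiviral effectors, SAMD9 and TRIM22 moved in opposite directions to each other in both treatments. SAMD9, a large cytoplasmic protein that restricts poxviruses, had 15.3, 15.5 and 17.0 TPM in high calcium, 62.2, 67.6 and 64.1 TPM in TGFb3, and 25.0, 22.4 and 26.6 TPM in control. The groups were well apart, with TGFb3 highest and high calcium lowest, the reverse of the order seen for IFIT2 and IFIT3. Its log2 difference was -0.60 ± 0.072 in high calcium (adjusted p = 4.8e-05) and 1.36 ± 0.072 in TGFb3 (adjusted p = 1.6e-07), and -1.96 ± 0.072 between the treatments (adjusted p = 1.0e-08). TRIM22, a ubiquitin ligase that restricts several viruses, had 27.2, 26.5 and 29.3 TPM in high calcium, 10.5, 10.5 and 8.58 TPM in TGFb3, and 17.9, 15.6 and 17.5 TPM in control. The control samples stood between the treated groups with no overlap. TRIM22 differed by 0.67 ± 0.088 (log2) in high calcium (adjusted p = 9.2e-05), 0.43 with median ratio rescaling, and -0.74 ± 0.088 in TGFb3 (adjusted p = 5.0e-05). TRIM5, a related gene whose span overlaps TRIM22 on the other strand with no shared exonic base, had 26.5 to 31.0 TPM in high calcium, 14.9 to 17.5 TPM in TGFb3 and 12.3 to 13.4 TPM in control, so it was not lowest in TGFb3 as TRIM22 was.

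MX1, a GTPase that blocks influenza and other viruses, had 3.07, 2.66 and 3.80 TPM in high calcium, 0.674, 0.732 and 0.741 TPM in TGFb3, and 0.843, 1.16 and 0.734 TPM in control. High calcium lay above all other samples and TGFb3 overlapped the control. MX1 differed by 1.12 ± 0.16 (log2) in high calcium (adjusted p = 0.00014) and -0.15 ± 0.16 in TGFb3 (adjusted p = 0.43). With means of 0.715 TPM in TGFb3 and 0.914 TPM in control, MX1 passed the filter of 1 TPM only through its high calcium samples. Its calls as higher in high calcium therefore count a gene that this group admitted to the test. At these low levels the size depends on the processing: the high calcium difference was 1.70 with a pseudocount of 0.1 in place of 1 TPM, and 0.73 with quantile normalisation (adjusted p = 0.0032). ISG20, an exonuclease that degrades viral RNA, had 5.56, 3.58 and 5.86 TPM in high calcium, 4.91, 3.56 and 4.02 TPM in TGFb3, and 1.10, 1.81 and 1.07 TPM in control. Both treatments were above the control and overlapped each other, with differences of 1.36 ± 0.19 in high calcium (adjusted p = 0.00015) and 1.16 ± 0.19 in TGFb3 (adjusted p = 0.00048). The other 4 effectors stayed under 1 TPM. MX2, an inhibitor of HIV, had at most 0.641 TPM in high calcium, 0.115 TPM in TGFb3 and 0.539 TPM in control, and RSAD2 (viperin), which makes a chain-terminating nucleotide, had 0.429, 0.296 and 0.434 TPM in high calcium, 0.162, 0 and 0 TPM in TGFb3, and 0.121, 0 and 0.104 TPM in control. CMPK2, a mitochondrial nucleotide kinase whose gene neighbours RSAD2, was listed at 0 in all treated samples, and BST2 (tetherin), which holds budding virus at the membrane, had at most 0.955 TPM in high calcium, 0.292 TPM in TGFb3 and 0.429 TPM in control.

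ISG15, the ubiquitin-like protein that is joined to other proteins after interferon, was higher in both treatments. It had 2.08, 2.47 and 2.50 TPM in high calcium, 3.05, 2.89 and 2.63 TPM in TGFb3, and 1.00, 0.868 and 0.847 TPM in control. No group overlapped another, with TGFb3 highest. The control averaged 0.907 TPM, so ISG15 passed the filter of 1 TPM through its treated samples. The log2 difference was 0.81 ± 0.13 in high calcium (adjusted p = 0.00028) and 1.01 ± 0.13 in TGFb3 (adjusted p = 6.1e-05), and with a pseudocount of 0.1 TPM these were 1.28 and 1.55. In high calcium it was 0.41 with quantile normalisation (adjusted p = 0.018). Between the treatments ISG15 was not called (-0.20, adjusted p = 0.18), but was lower in high calcium under each of the 3 other scalings (-0.36 to -0.53). Neither USP18 nor HERC6 was called higher in TGFb3, and HERC5 was under the 1 TPM needed for the test. HERC6, a relative of the human ISG15 ligase HERC5, had 24.6 to 27.1 TPM in high calcium, 17.0 to 19.0 TPM in TGFb3 and 18.7 to 21.1 TPM in control. Its difference was -0.13 in TGFb3 (adjusted p = 0.13) and 0.36 ± 0.068 in high calcium (adjusted p = 0.0010), and the second was 0.14 above the median of all symbols and not called with median ratio rescaling (0.12, adjusted p = 0.14) or quantile normalisation (0.15, adjusted p = 0.076). HERC5 itself was listed at 0 in all TGFb3 samples and reached 0.273 TPM in high calcium and 0.117 TPM in control. USP18, the protease that takes ISG15 off proteins and also blocks the type I receptor, had 3.91 to 4.28 TPM in high calcium, 2.20 to 3.39 TPM in TGFb3 and 3.80 to 4.74 TPM in control. It was lower in TGFb3 (-0.47 ± 0.14, adjusted p = 0.013) and not called in high calcium (-0.04 ± 0.14, adjusted p = 0.82) except with quantile normalisation (-0.42, adjusted p = 0.019).

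PARP9 and DTX3L, an ADP-ribosyltransferase and a ubiquitin ligase that work as a complex, lie head to head on chromosome 3, at chr3:122527924-122564577 (-) and chr3:122564238-122575203 (+). DTX3L had 43.4, 42.6 and 40.2 TPM in high calcium, 27.8, 28.9 and 28.7 TPM in TGFb3, and 25.2, 26.7 and 28.8 TPM in control. High calcium stood above the other 2 groups, which overlapped. PARP9 had 17.7, 16.3 and 20.8 TPM in high calcium, 19.0, 16.1 and 18.1 TPM in TGFb3, and 17.2, 16.0 and 18.1 TPM in control, with all groups overlapping. The log2 difference in high calcium was 0.63 ± 0.058 for DTX3L (adjusted p = 7.6e-06; 0.38 with median ratio rescaling) and 0.09 for PARP9, with a 95% interval of -0.13 to 0.30. In TGFb3 neither was called (DTX3L 0.08, adjusted p = 0.26; PARP9 0.05, adjusted p = 0.69). Their annotated exons share 217 bases, 3.70% of those of DTX3L.

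Of the 7 remaining genes, IFI6 and IFI27 were higher in both treatments. IFI6, a small membrane protein that protects cells from death and restricts flaviviruses, had 7.41, 5.93 and 4.50 TPM in high calcium, 4.56, 4.15 and 3.52 TPM in TGFb3, and 1.91, 1.98 and 2.73 TPM in control. IFI27, a related small membrane protein, had 5.05, 8.46 and 3.62 TPM in high calcium, 6.04, 4.37 and 3.87 TPM in TGFb3, and 1.41, 1.34 and 3.00 TPM in control. For both genes every treated sample was above the highest control sample, and the treated groups were spread widely and overlapped. The IFI6 difference was 1.10 ± 0.17 in high calcium (adjusted p = 0.00030; 0.72 with quantile normalisation) and 0.66 ± 0.17 in TGFb3 (adjusted p = 0.0073). The IFI27 difference was 1.18 ± 0.29 in high calcium (adjusted p = 0.0047) and 1.01 ± 0.29 in TGFb3 (adjusted p = 0.012). Between the treatments IFI6 was called at 0.44 (adjusted p = 0.045), but that call was lost in 14 of the 16 alternatives that could be run for it, with a value of 0.29 without high calcium replicate 1 (adjusted p = 0.17). IFI44 and IFI44L, neighbouring genes on chromosome 1 that encode cytoplasmic proteins, were not called against the control in either treatment. IFI44 had 5.85 to 8.31 TPM in high calcium, 8.39 to 8.92 TPM in TGFb3 and 7.53 to 8.16 TPM in control. IFI44L had 3.44 to 4.21 TPM in high calcium, 2.74 to 4.42 TPM in TGFb3 and 3.56 to 4.68 TPM in control. In high calcium the differences were -0.19 for IFI44 and -0.11 for IFI44L, both under the median of all symbols, and IFI44 was called lower without high calcium replicate 3 (-0.33, adjusted p = 0.012) and under each of the 3 other scalings (-0.37 to -0.54). IFI44L was called lower with quantile normalisation in high calcium (-0.51, adjusted p = 0.021) and, in TGFb3, without TGFb3 replicate 2 (-0.39, adjusted p = 0.047).

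IFI35, which binds the protein NMI, had 2.75 to 4.40 TPM in high calcium, 1.41 to 3.47 TPM in TGFb3 and 1.70 to 2.65 TPM in control. All high calcium samples lay above the control, but the difference of 0.53 ± 0.24 was not called (adjusted p = 0.085). It was called without high calcium replicate 2 (0.69, adjusted p = 0.047) and without TGFb3 replicate 2 (0.53, adjusted p = 0.030). EPSTI1, a gene named for its response in breast epithelium to stromal cells, had 0.605, 0.770 and 0.558 TPM in high calcium, was listed at 0 in all TGFb3 samples, and had 0.167, 0.208 and 0.200 TPM in control. Although EPSTI1 is under the 1 TPM needed for the test, its groups did not overlap. In a fit with no filter on low values EPSTI1 was higher in high calcium (0.46, adjusted p = 0.00031) and lower in TGFb3 (-0.25, adjusted p = 0.0084). RSAD2 was also higher in high calcium in that fit (0.37, adjusted p = 0.0073), and MX2 was higher in high calcium than in TGFb3 (0.56, adjusted p = 0.016). In that fit 26.76% of all symbols were higher in high calcium against control and 16.6% lower in TGFb3 against control. Between the treatments 29.01% were higher in high calcium. These genes were picked from the 8 under 1 TPM, EPSTI1 and RSAD2 after their values were seen. Their values lie near 0 at an unknown depth, so the calls are no result about the genes under 1 TPM as a set.

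A list of 115 other interferon pathway genes gives the setting, of which 87 were tested. Of these 87, 58 were higher (66.7%), 9 were lower (10.3%) and 20 were not called in high calcium against control, beside 46.1% higher and 17.0% lower of all symbols. With median ratio rescaling 41 were higher and 20 lower, beside 29.7% and 30.8% of all symbols. In TGFb3 against control 35 were higher (40.2%), 25 were lower (28.7%) and 27 were not called, beside 26.5% and 33.1% of all symbols. With median ratio rescaling 37 were higher and 20 lower, beside 28.9% and 30.6% of all symbols. Over all alternatives 29 to 37 were higher and 18 to 24 lower, so the count of 25 lower was reached in none of them. In high calcium against TGFb3 48 of the 87 were higher (55.2%), 16 were lower (18.4%) and 23 were not called, beside 50.4% and 16.2% of all symbols. Of 22 interferon genes, IFNE, the epithelial type I interferon, was the only one with a mean of at least 1 TPM. IFNE had 2.11, 2.05 and 1.53 TPM in high calcium, 4.03, 6.59 and 4.75 TPM in TGFb3, and 1.59, 0.965 and 1.26 TPM in control. Its TGFb3 samples stood above all others, with a difference of 1.42 ± 0.18 (adjusted p = 7.7e-05), whereas in high calcium it was 0.35 ± 0.18 (adjusted p = 0.12). IFNK, another epithelial type I interferon, was listed at 0 in every high calcium and control sample and had 2.20, 2.73 and 1.72 TPM in TGFb3. IFNB1 reached no more than 0.16 TPM in any sample, and IFNL1 was listed at 0 in all. The genes for the early antiviral interferons were at or near 0 in all 3 groups.

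Below the ligands, the kinase JAK1 had 113 to 116 TPM in high calcium, 110 to 114 TPM in TGFb3 and 55.9 to 59.7 TPM in control, with differences of 0.97 ± 0.039 in high calcium (adjusted p = 2.4e-08) and 0.94 ± 0.039 in TGFb3 (adjusted p = 3.6e-08). The kinase TYK2 was also higher in both, by 0.49 in high calcium (adjusted p = 0.0016) and 0.36 in TGFb3 (adjusted p = 0.011). Of the receptors, IFNAR1 was higher in TGFb3 (0.40, adjusted p = 0.00042) and not called in high calcium (0.09, adjusted p = 0.27), and IFNAR2 was called in neither (0.20 in high calcium and 0.23 in TGFb3). The type III receptor chain IFNLR1 was higher in TGFb3 (0.67, adjusted p = 0.00069) and not called in high calcium (-0.17, adjusted p = 0.24). Among negative regulators, SOCS3, which blocks JAK kinases, was higher in both treatments (0.97 in high calcium, 0.83 in TGFb3). SOCS1, its relative, had 0.27, 0.34 and 0.84 TPM in high calcium, 1.09, 0.85 and 0.90 TPM in TGFb3, and was listed at 0 in all control samples.

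Among the 38 other tested interferon-stimulated genes, 25 were higher (65.8%), 6 lower (15.8%) and 7 not called in high calcium, beside 46.1% higher and 17.0% lower of all symbols. With median ratio rescaling 19 were higher and 9 lower, beside 29.7% and 30.8% of all symbols. In TGFb3 15 were higher (39.5%), 12 lower (31.6%) and 11 not called, beside 26.5% and 33.1% of all symbols. GBP2, a guanylate-binding GTPase of cell-autonomous defence, had 17.8 to 21.0 TPM in high calcium, 27.0 to 32.2 TPM in TGFb3 and 5.57 to 6.51 TPM in control. The enzyme TYMP, a thymidine phosphorylase, had 34.8 to 36.2 TPM in high calcium, 32.6 to 44.5 TPM in TGFb3 and 7.79 to 11.2 TPM in control. Both were thus higher in each treatment. The log2 difference of GBP2 was 1.52 in high calcium and 2.07 in TGFb3, and that of TYMP was 1.87 in high calcium and 1.92 in TGFb3, with the largest of the 4 adjusted p-values at 1.2e-06. CXCL11, a chemokine for T cells, was higher in high calcium (1.66, adjusted p = 4.4e-07) and not called in TGFb3 (-0.07, adjusted p = 0.57). LAMP3, a lysosomal membrane protein, split like IFIT2, at 1.47 in high calcium (adjusted p = 4.0e-07) and -1.15 in TGFb3 (adjusted p = 2.2e-06). UBE2L6, the enzyme that passes ISG15 to its ligases, which stood on the list of negative regulators although it has the opposite role to USP18, was higher in high calcium (1.31, adjusted p = 1.1e-07) and slightly lower in TGFb3 (-0.21, adjusted p = 0.021). APOL6, an apolipoprotein L, was higher in high calcium (1.31, adjusted p = 1.3e-07). In TGFb3 the largest differences were also those of LY6E, a membrane protein that limits coronavirus entry (-1.75, adjusted p = 4.9e-08), DDX60L, a relative of an RNA helicase (1.41, adjusted p = 4.1e-07), the death ligand TNFSF10 (1.32, adjusted p = 0.00038) and GBP3, a relative of GBP2 (1.12, adjusted p = 1.5e-06).

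**Figure D5:**
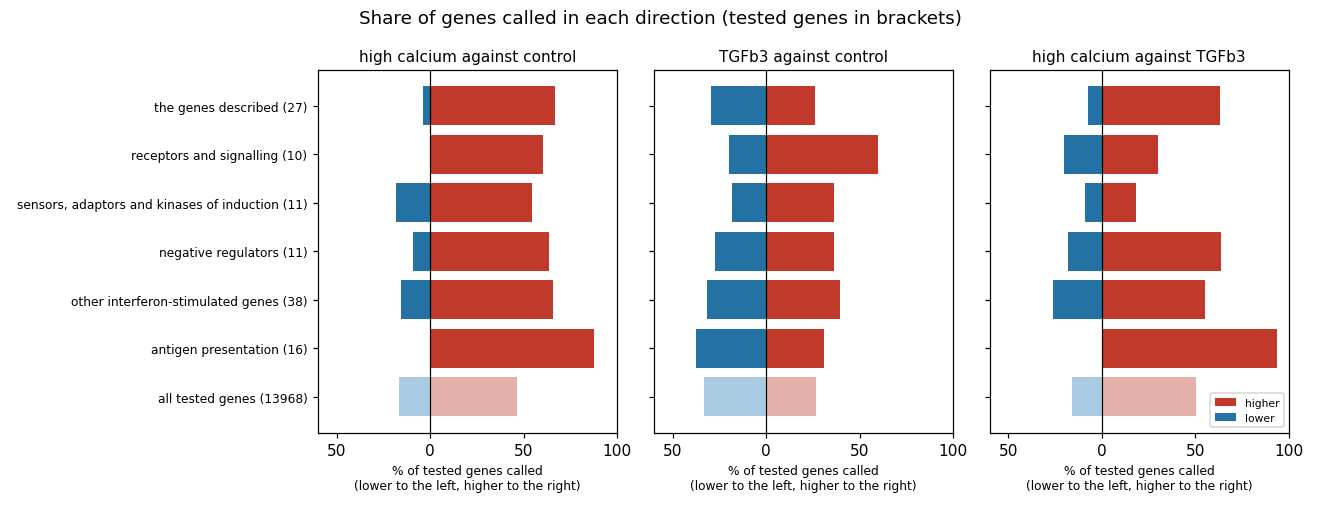
Percent of tested genes called higher (bars to the right) and lower (bars to the left) for the 27 interferon-stimulated genes, each of the other interferon pathway lists except the ligands (1 tested gene) and all 13968 tested symbols, in the 3 comparisons. In high calcium against control 66.7% of the 27 were higher, beside 46.1% of all symbols, and in TGFb3 against control 25.9% were higher, beside 26.5%.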

How the data were processed

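RNA of 9 MCF10A samples, 3 in each of 3 groups, was extracted with Trizol and sequenced as paired ends on an Illumina NovaSeq, per the labels' protocols. The submitters' processing notes name HISAT2 and the build hg38. Strandedness, the annotation release and the counting program: not given in the sources used here. As deposited by the authors, the data are TPM values of 58288 annotated genes in 1 table, with 0 unmapped columns. Entries sharing a symbol (1932 entries, 253 symbols) were summed. TPM columns each total 1000000 and keep no depth, so no interval for counting error is given.

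The 13968 symbols averaging at least 1 TPM over the 9 samples were tested as log2(TPM + 1) with limma 3.58.1 (R 4.3.3; lmFit and eBayes with a trend, all 3 groups, 6 residual degrees of freedom). Adjusted p-values are two-sided, by Benjamini-Hochberg over all tested symbols, and a gene was called under 0.05. A fold on this scale understates changes of low genes. The method was tested on simulated data. The genes and lists described were chosen with earlier results of these data known. All 35 genes are named. Values in every sample are given for genes called with an absolute log2 difference of at least 0.5 in any comparison, and for STAT2, IRF9, IRF1, IRF7, ISG15 and MX1. Of the other pathway genes, the 8 largest called differences of each treatment against control are named, with a set of ligands, receptors, kinases and inhibitors. EPSTI1, RSAD2 and their per-sample values, LIPA and TRIM5 were added after their values were seen.

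Loci and overlaps come from GENCODE 29 (35 genes matched by identifier, 32 with the same version; 19 overlap another gene). Promoters come from RefSeq. Each comparison was repeated under 17 alternatives (16 for genes under a mean of 5 TPM): another pseudocount, 2 other filters, 3 other scalings, only the compared groups, a replicate block, and each of the 9 samples left out. Tables were made with pandas 2.3.3 under Python 3.11.15, and figures with matplotlib 3.10.9. Some genes of the lists are not reported here.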

Additional observations from a re-analysis of the deposited data

How the results depend on the processing

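Of 81 results of single genes (27 genes in 3 comparisons), 53 were called. Of these 53, 39 kept direction and call under every alternative tried, 14 lost the call under at least 1, and 0 reversed. Of the uncalled results, 12 were called under some alternative, 2 of them with the other sign. With a minimum mean of 5 TPM only 17 genes were tested. Of these, 11 were higher in high calcium against control (median log2 difference 0.39) and 3 were higher in TGFb3 against control (median -0.13). The shares of all symbols under this filter are not given, so these counts cannot be set beside them and are no result about the genes. With no filter the median in TGFb3 against control was -0.048, and 1 gene was lower in high calcium against TGFb3, beside 9.11% of all symbols. With median ratio rescaling 4 of the 27 genes and 20 of the 87 other pathway genes were lower in high calcium against control, beside 30.8% of all symbols. The median was 0.38. Between the treatments 10 of the 27 were higher and 4 lower, beside 29.7% and 30.8% of all symbols, with a median of 0.20. Of the other pathway genes 39 were higher and 35 lower in this comparison. With quantile normalisation 6 genes and 18 other pathway genes were lower in high calcium against control, beside 32.0% of all symbols. Between the treatments 37 other pathway genes were higher and 31 lower, beside 31.2% and 29.9% of all symbols, and the median of the 27 was 0.17. With mitochondrial genes left out 3 genes and 18 other pathway genes were lower in high calcium against control, beside 27.0% of all symbols. Between the treatments 40 other pathway genes were higher and 25 lower, beside 35.9% and 24.5% of all symbols. The cause of these shifts was not tested, beyond what the construction shows: each scaling moves the median of all symbols.

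Reversed values belonged to results that were not called as reported. Against control, in high calcium, IFIT5 was -0.23, -0.21 and -0.18 with median ratio rescaling, quantile normalisation and mitochondrial genes left out, PARP9 was -0.16, -0.15 and -0.10 in the same order, and OAS1 was -0.00067 with quantile normalisation. IFIT5 was called lower under all 3 of its settings (adjusted p = 0.0059, 0.011 and 0.021). Between the treatments, in that order, IRF9 was -0.27, -0.27 and -0.18, DDX58 was -0.17, -0.14 and -0.073, PARP9 was -0.25, -0.22 and -0.15, and IFI44L was -0.10, -0.20 and -0.022. Of these, PARP9 was called with median ratio rescaling (adjusted p = 0.048). ISG20 was -0.041 and IFI27 -0.074 with median ratio rescaling, and -0.13 and -0.15 with quantile normalisation.

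Leaving out each sample in turn gave 1 to 2 genes lower in high calcium against control (2 without high calcium replicate 3). In high calcium against TGFb3 it gave 1 to 2 lower (1 without high calcium replicate 1 or 2, or TGFb3 replicate 1 or 3). The shares of all symbols called in these fits are not given. The median in TGFb3 against control ranged from -0.095 to 0.088, and was negative without TGFb3 replicate 1 (-0.081) or control replicate 1. Single genes near 0 changed sign. The ranges for high calcium against control were -0.0096 to 0.046 for IFIT5, -0.0065 to 0.16 for PARP9, -0.071 to 0.080 for OAS3 and -0.094 to 0.035 for USP18. For TGFb3 against control they were -0.00057 to 0.11 for PARP9, -0.081 to 0.37 for IFI35, -0.23 to 0.033 for IRF1 and -0.095 to 0.39 for IRF7. For high calcium against TGFb3 they were -0.11 to 0.17 for IRF9, -0.11 to 0.41 for IFI27 and -0.055 to 0.11 for PARP9.

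The replicate numbers share only a label: same-numbered samples had correlations of their deviations of -0.075 to -0.0037 over 9 pairs, and differently numbered samples -0.035 to 0.090 over 18 pairs. With a replicate block the counts were 18 higher and 1 lower in high calcium, 7 higher and 8 lower in TGFb3, and 16 higher and 2 lower between the treatments, where IFI6 lost its call (adjusted p = 0.065). In the same order, 44.8% and 16.5%, 25.7% and 31.9%, and 49.6% and 15.7% of all symbols were higher and lower.

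The depth of the libraries is unknown, and a listed 0 among the 8 genes under 1 TPM gives no upper limit.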

Other observations

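Class I antigen presentation, which interferons also raise, was measured in 16 tested genes of a list of 18. In high calcium against control 14 of the 16 were higher, 0 were lower and 2 were not called. With median ratio rescaling 11 were higher and 1 lower, beside 29.7% and 30.8% of all symbols under that scaling. In TGFb3 against control 5 were higher, 6 were lower and 5 were not called. In high calcium against TGFb3, 15 of the 16 were higher. Of all tested symbols, 46.1% were higher and 17.0% lower in high calcium against control, 26.5% and 33.1% in TGFb3 against control, and 50.4% and 16.2% in high calcium against TGFb3. PSMB9, a subunit of the immunoproteasome that cuts proteins into peptides, had 11.6, 11.2 and 8.37 TPM in high calcium, 3.04, 2.89 and 3.69 TPM in TGFb3, and 3.54, 3.66 and 4.93 TPM in control. High calcium lay above all other samples, and TGFb3 overlapped the control. TAP1, which carries peptides into the endoplasmic reticulum, had 39.3, 39.2 and 36.2 TPM in high calcium, 24.5, 22.8 and 21.7 TPM in TGFb3, and 20.1, 21.4 and 23.6 TPM in control. Its log2 difference was 0.79 ± 0.072 in high calcium (adjusted p = 6.4e-06) and 0.08 ± 0.072 in TGFb3 (adjusted p = 0.36). ERAP1, which trims peptides there, was higher in both treatments (1.36 in high calcium, adjusted p = 1.7e-07; 0.40 in TGFb3, adjusted p = 0.00091). B2M, the light chain of the class I complex, had 2048 to 2299 TPM in high calcium, 1249 to 1300 TPM in TGFb3 and 1396 to 1614 TPM in control. The heavy chain HLA-B had 125 to 132 TPM in high calcium, 58.2 to 71.2 TPM in TGFb3 and 63.3 to 64.3 TPM in control. HLA class I genes resemble each other closely in sequence, so their values are uncertain. NLRC5, the transactivator of class I genes, was higher in high calcium (0.55, adjusted p = 0.049) and lower in TGFb3 (-0.57, adjusted p = 0.046), both close to the threshold.

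The type II receptor chain IFNGR1 was lower in TGFb3. It had 158 to 165 TPM in high calcium, 74.6 to 79.4 TPM in TGFb3 and 139 to 145 TPM in control, with log2 differences of 0.19 ± 0.040 in high calcium (adjusted p = 0.0021) and -0.86 ± 0.040 in TGFb3 (adjusted p = 7.4e-08). The high calcium difference lies under the median of all symbols, 0.22.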
